A study of Mus musculus with 32 samples.

Results

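The transcriptomes of 3T3-L1 adipocytes treated with SCO were compared with those of 3T3-L1 adipocytes treated with CAP7, in both cases without tumour necrosis factor alpha (TNF). The members of the comparison were the 8 libraries whose titles carry the treatment names basal_SCO (4 libraries) and basal_CAP7 (4 libraries), out of 32 libraries in all. 3T3-L1 is a mouse preadipocyte line that turns into fat-storing cells in culture. Here it was differentiated with insulin, dexamethasone and IBMX and then kept in serum and insulin, and each group received its agent for 24 hours. The other groups were the vehicle DMSO, and rosiglitazone (ROSI), an agonist of the adipocyte nuclear receptor PPARgamma, with each of the 4 agents given with and without TNF. The series title names an extract of Artemisia scoparia. The labels do not spell out SCO or CAP7 (also written Cap 7) and give no dose for either, so nothing below compares the 2 agents at a matched dose. All cells came from 1 line, and the labels call the 4 libraries of a group biological replicates without saying whether these were separate differentiations, so p-values measure the spread between these libraries only.

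RNA was measured with QuantSeq 3′ libraries, which read the end of each transcript, so a count stands for transcripts of a gene and not for its isoforms. The 8 libraries held between 13.25 M and 28.57 M counts in genes. The CAP7 libraries were the deeper ones, with a mean of 22.4 M against 15.03 M for SCO (exact two-sided permutation test, p = 0.0571, 0.171 after adjustment over 6 library measures, where 4 against 4 libraries cannot give less than 0.0286). Markers of adipocytes were abundant in both groups, among them Adipoq at 8874 ± 429 CPM (counts scaled to a common library size; mean ± SD over 4 libraries) with SCO and 8652 ± 592 with CAP7. Of 14 macrophage and leukocyte markers, 8 had no count in any of the 8 libraries, Ptprc and Adgre1 included. The markers that were present summed to 7.47 to 11.5 CPM with SCO, 4.39 to 8.34 with CAP7 and 11.2 to 15.4 with DMSO. Endothelial and mural markers summed to 25.6 to 28.8 CPM with SCO and 26.4 to 35.4 with CAP7, and 4 of these 12 (Cdh5, Cldn5, Kdr and Tie1) were at 0. Preadipocyte and fibroblast markers summed to 2828 to 3029 CPM with SCO, 2360 to 2662 with CAP7 and 3918 to 4312 with DMSO, so the 2 treated groups did not overlap. In bulk RNA, fewer cells of a type and less RNA per cell cannot be told apart.

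An adipocyte takes up glucose and fatty acids, stores triglyceride in a lipid droplet and secretes hormones such as adiponectin. When oxygen or oxidative metabolism falls short, the transcription factor HIF1 raises the enzymes of glycolysis and the prolyl hydroxylases that mark HIF1 itself for degradation. When amino acids, protein folding or redox balance are disturbed, the factor ATF4 raises amino acid synthesis, transfer RNA charging and the stress factor CHOP, while NRF2 and the aryl hydrocarbon receptor drive detoxifying enzymes.

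Of 14428 genes tested, 872 (6.04%) passed an adjusted p of 0.05 in edgeR's quasi-likelihood test and are referred to as called. Of these, 434 (3.01%) were higher and 438 (3.04%) were lower with SCO. All differences are log2 of SCO over CAP7, so a negative value means a lower level with SCO. Most were small: 693 of the 872 called genes differed by less than 1.5-fold, and the median size was 0.37 on the log2 scale. A difference of at least 2-fold was found in 36 genes higher with SCO (0.25%) and 19 lower (0.132%). The 4 SCO libraries did not overlap the 4 CAP7 libraries in 759 of the called genes, while over all genes tested the groups did not overlap in 5.49% with SCO higher and 6.54% with SCO lower. Without SCO replicate 1 the test called 287 genes higher and 235 lower, and 489 of the 872 were called again. With library sizes alone in place of TMM scaling it called 667 higher and 264 lower, moving the share of higher calls from 49.8% to 71.6%. With all libraries thinned to one depth it called 412 higher and 369 lower.

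**Figure D1:**
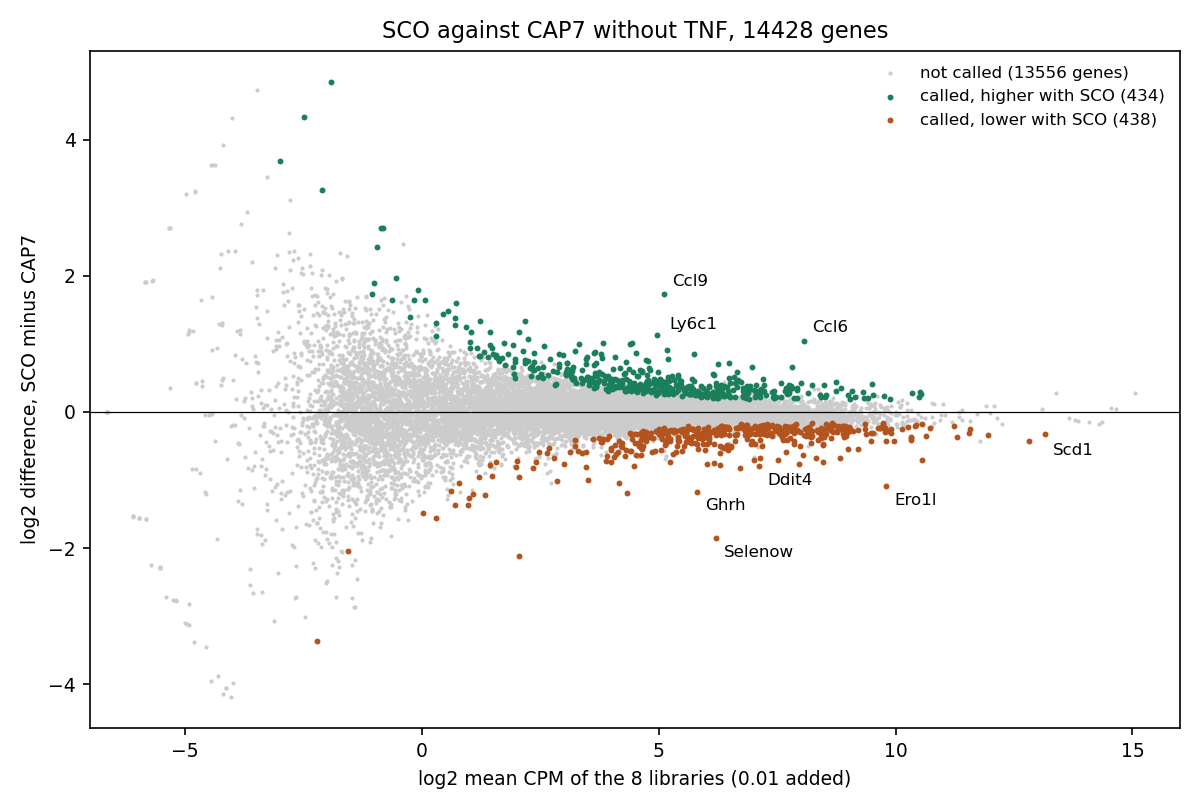
Log2 difference SCO minus CAP7 against log2 mean CPM of the 8 libraries, 1 point per gene. The 434 genes called higher (green) and 438 called lower (brown) with SCO lie mostly within 1.5-fold, with Ccl9, Selenow and Ero1l standing out among abundant genes.

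Each agent was then set against the 4 DMSO libraries. Both comparisons use the same DMSO libraries, and each shares its treated libraries with the contrast above, so the counts that follow describe levels and are not further support. Of the 434 genes higher with SCO than with CAP7, 310 were lower than DMSO with CAP7, 19 were higher and 105 were not called. With SCO, 116 of these genes were lower than DMSO, 81 were higher and 237 were not called. Of the 438 genes lower with SCO than with CAP7, 356 were higher than DMSO with CAP7, 4 were lower and 78 were not called. With SCO, 153 of these were higher than DMSO, 41 were lower and 244 were not called. Over all genes, 2781 (19.3%) were called against vehicle with SCO, 1484 higher (10.3%) and 1297 lower (8.99%), and 4370 (30.3%) with CAP7, 2200 higher (15.2%) and 2170 lower (15%). With library sizes alone the median gene of CAP7 minus DMSO shifted to -0.127, and its calls became 1353 higher and 3351 lower.

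**Figure D2:**
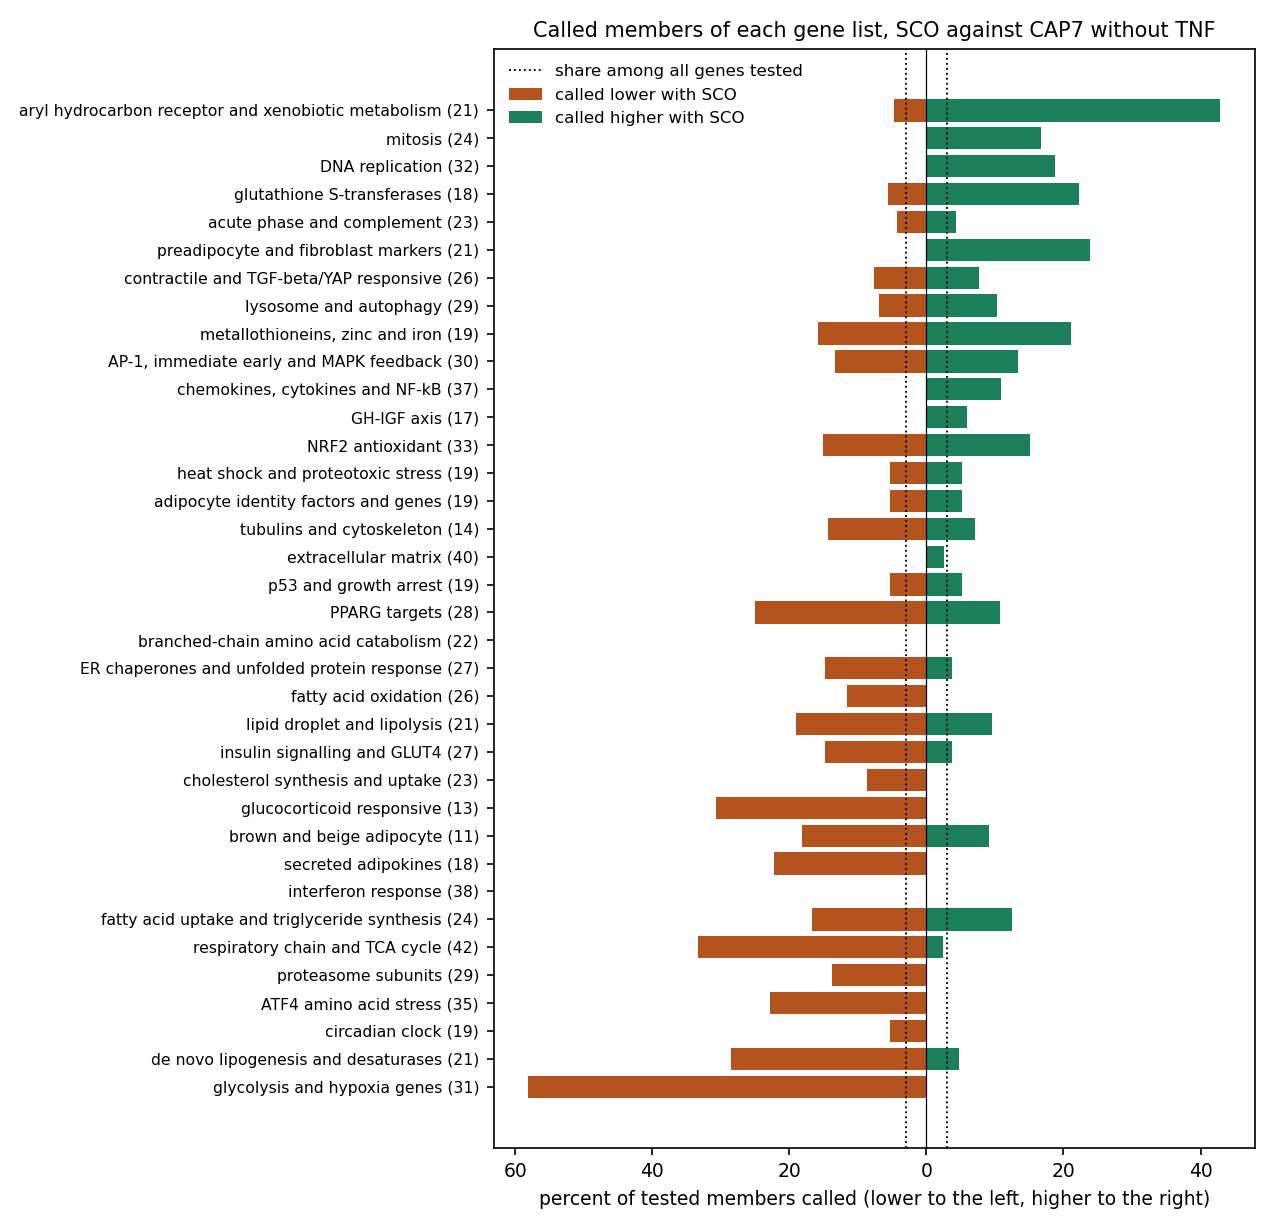
Percent of the tested members (number in brackets) of each gene list that were called lower (to the left) or higher (to the right) with SCO, sorted by median log2 difference. Glycolysis and hypoxia genes have 58.1% of members called lower, and genes of the aryl hydrocarbon receptor and xenobiotic metabolism 42.9% called higher, against 3.04% and 3.01% of all genes (dotted lines).

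Genes of glycolysis and of the hypoxia response were lower with SCO than with CAP7. All 31 listed genes were tested, 18 were called lower (58.1%, against 3.04% of all genes) and none higher by edgeR, DESeq2 or limma-voom or at an unadjusted p of 0.05, and all 31 differences were below 0, with a median of -0.33 against 0.0014 for all genes. Over the 18 alternative analyses 14 to 23 members were called lower, and none higher. The list spans glucose entry and phosphorylation (Hk2, a hexokinase), the regulator of phosphofructokinase Pfkfb3, the core enzymes from Aldoa to Pkm, lactate formation (Ldha), and the hypoxia-responsive genes Egln1, Bnip3, Higd1a and Ndrg1. Where glucose transport and the regulators themselves are concerned, Slc2a1, the basal glucose transporter, Vegfa, the vascular growth factor, and Hif1a, the oxygen-regulated subunit of HIF1, gave differences of -0.26, -0.24 and -0.15, with adjusted p of 0.221, 0.122 and 0.194. These were not called, but Slc2a1 was called lower in 1 of the 18 alternatives and Vegfa in 2.

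Ero1l, also called Ero1a, which makes disulfide bonds in the endoplasmic reticulum and is induced by low oxygen, had 474, 640.0, 527 and 634 CPM in the 4 SCO libraries, 1398, 1054, 1274 and 1129 in the 4 CAP7 libraries and 379.9, 374, 300.0 and 375 in the 4 DMSO libraries. The 3 groups did not overlap, with CAP7 highest and DMSO lowest. The difference SCO minus CAP7 was -1.09 ± 0.18 (SE; adjusted p = 0.000152), and the differences from DMSO were 0.67 with SCO and 1.76 with CAP7. Pfkfb3, which makes a strong activator of phosphofructokinase, had 84.5, 74.4, 74.3 and 73.5 CPM with SCO and 115, 148, 120.4 and 156 with CAP7, and 60.1, 58.1, 56.8 and 59.8 with DMSO. Every CAP7 library was above every SCO library, and every SCO library above every DMSO library. The difference was -0.82 ± 0.12 (adjusted p = 1.27e-05). Ndrg1, a hypoxia-responsive gene, had 56.4, 60.1, 53.96 and 59.1 CPM with SCO and 124, 99.8, 102 and 68.9 with CAP7, with CAP7 replicate 4 the closest to the SCO libraries (-0.78 ± 0.17, adjusted p = 0.0026002).

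The glycolytic enzymes themselves differed by less. Ldha, the lactate dehydrogenase subunit that turns pyruvate into lactate, had 1097, 1171, 994 and 1131 CPM with SCO and 1447, 1445, 1553 and 1422 with CAP7, without overlap (-0.42 ± 0.067, adjusted p = 8.48e-05). Pkm, pyruvate kinase, averaged 759 ± 19.7 CPM with SCO and 1019 ± 51.7 with CAP7 (-0.42 ± 0.061, adjusted p = 1.61e-05). Hk2 averaged 424 ± 24.6 and 530.3 ± 50.8 CPM (-0.32 ± 0.075, adjusted p = 0.00625). Aldoa, the aldolase of glycolysis, averaged 2771 ± 123 and 3283 ± 96.6 CPM (-0.24 ± 0.059, adjusted p = 0.00823). Egln1, the prolyl hydroxylase PHD2 that marks HIF1 for degradation, averaged 209.9 ± 6.89 and 296 ± 18.9 CPM (-0.49 ± 0.088, adjusted p = 0.000341). The mitochondrial proteins Bnip3, a receptor for mitophagy, and Higd1a, a hypoxia-induced protein of the inner membrane, differed by -0.36 ± 0.085 and -0.46 ± 0.12. Gapdh was called at -0.55 (adjusted p = 0.0309), but its SCO libraries ranged widely (389, 442, 303 and 526 CPM). Without some single libraries calls in this list were lost: for Gapdh without SCO replicates 1 and 3 or CAP7 replicates 1 and 3 (-0.54 to -0.42), for Higd1a without SCO replicate 3 (-0.37) and for Hk2 without SCO replicate 1 (-0.28).

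**Figure D3:**
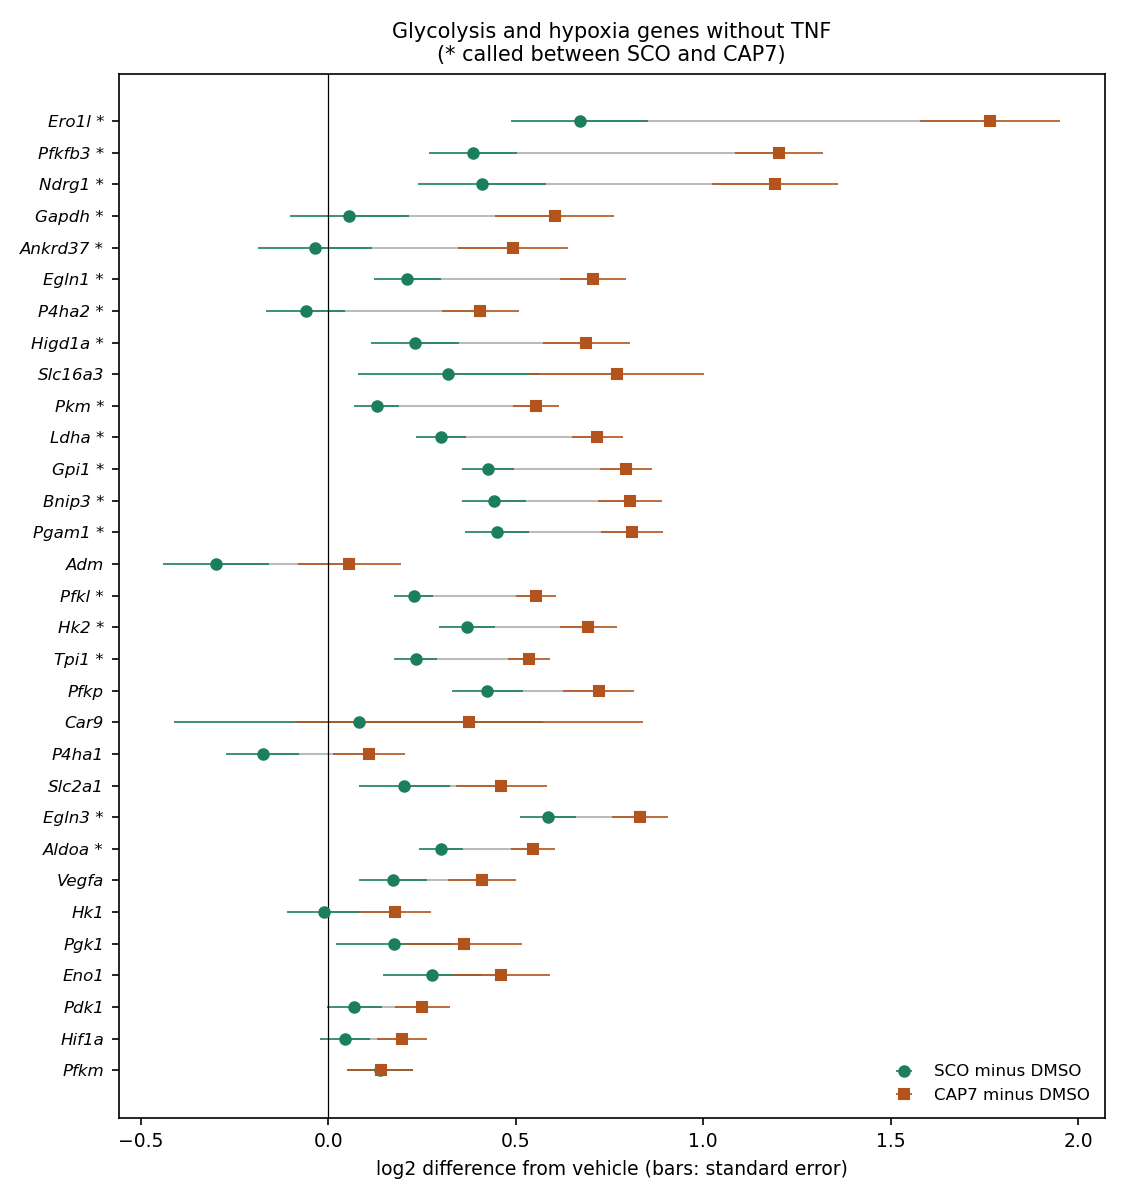
Log2 difference from the 4 DMSO libraries (x axis; bars are standard errors) for the 31 glycolysis and hypoxia genes, with SCO (circles) and CAP7 (squares), sorted by the difference between them. The CAP7 value is above the SCO value for all 31 genes, and asterisks mark the 18 called between SCO and CAP7.

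The windows before the start sites of 3 of these genes show what their upstream sequence shares. HIF1 binds sites with the core ACGTG or GCGTG, and capitals below mark these cores on either strand in the 250 bases before the first RefSeq start of each gene, written 5′ to 3′ on the strand of the gene (build GRCm38.p6). The windows are Pfkfb3 at chr2:11553930-11554179 on the minus strand, Ldha at chr7:46845554-46845803 on the plus strand and Egln1 at chr8:124949255-124949504 on the minus strand.
Pfkfb3: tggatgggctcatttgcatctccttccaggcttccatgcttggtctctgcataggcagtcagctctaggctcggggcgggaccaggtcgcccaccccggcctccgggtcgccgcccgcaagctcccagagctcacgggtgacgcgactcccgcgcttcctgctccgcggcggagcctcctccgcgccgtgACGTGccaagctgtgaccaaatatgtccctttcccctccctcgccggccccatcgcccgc
Ldha: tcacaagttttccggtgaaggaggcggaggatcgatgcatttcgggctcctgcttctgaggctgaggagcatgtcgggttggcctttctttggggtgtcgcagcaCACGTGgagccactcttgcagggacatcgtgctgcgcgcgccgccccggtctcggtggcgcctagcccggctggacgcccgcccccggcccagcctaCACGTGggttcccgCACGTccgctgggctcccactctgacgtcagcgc
Egln1: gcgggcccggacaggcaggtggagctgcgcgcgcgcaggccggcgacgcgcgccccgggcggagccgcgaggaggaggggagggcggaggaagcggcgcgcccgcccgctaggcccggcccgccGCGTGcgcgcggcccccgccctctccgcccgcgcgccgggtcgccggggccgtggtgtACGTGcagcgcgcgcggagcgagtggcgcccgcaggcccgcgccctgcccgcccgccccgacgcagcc
Pfkfb3 has 1 match, Egln1 2 and Ldha 5, since CACGTG, which is also the E-box, reads as the core on both strands. Of the 18 called members, 16 had a promoter in the table, and 14 of these held a core. Gpi1 and Tpi1 held none, and Ero1l and Ndrg1 had no entry. All 13 members that were not called held one too, so the match did not separate called from uncalled members. Counted over any start site of a gene, a core was held by 61.3% of 10059 tested genes with a promoter. The share was 41.5% of all 27025 genes with a promoter. A match is a description of the sequence and not evidence of binding.

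Several genes of the amino acid stress response were also lower with SCO. All 35 listed ATF4 genes were tested, 8 were called lower (22.9% against 3.04%) and none higher (1 at an unadjusted p of 0.05, none by DESeq2 or limma-voom), and 27 of the 35 were below 0, with a median of -0.14. Ddit3, which encodes CHOP, had 228, 298, 249.7 and 291 CPM with SCO and 468, 395, 476 and 434 with CAP7, and 216, 234, 229 and 237 with DMSO. No SCO library reached the lowest CAP7 library, and SCO replicate 1 lay within the DMSO range (-0.73 ± 0.14, adjusted p = 0.00118). Ddit4, an inhibitor of the growth kinase complex mTORC1, had 88.8, 105, 119 and 93.1 CPM with SCO and 188, 186, 172 and 159 with CAP7, without overlap, and a DMSO mean of 100.2 ± 14.5 (-0.80 ± 0.13, adjusted p = 0.0001401). Gdf15, a stress hormone, averaged 15.2 ± 1.86 and 23.9 ± 3.001 CPM (-0.65 ± 0.17, adjusted p = 0.0184). Wars, the tryptophanyl-tRNA synthetase, averaged 51.4 ± 5.11 and 71.2 ± 4.06 CPM (-0.47 ± 0.10), and Psat1, of serine synthesis, 362 ± 10.1 and 429 ± 32.8 (-0.25 ± 0.061). Trib3, a pseudokinase induced by ATF4 and CHOP, was called at -0.47 with an adjusted p of 0.0456, and that call was lost in 11 of the 18 alternatives, among them those without SCO replicates 1, 2, 3 and 4 or CAP7 replicates 1, 2, 3 and 4 (-0.52 to -0.40).

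Other listed targets were not called. Asns, asparagine synthetase, had 253, 262, 259 and 255 CPM with SCO and 235, 276, 256 and 276 with CAP7. The groups overlapped, with a difference of -0.020 and a 95% interval of -0.15 to 0.11, although both exceeded DMSO (151 ± 7.105 CPM). Atf4 itself gave -0.25 (adjusted p = 0.0559), but 7 of the 18 alternatives called it lower, DESeq2 and limma-voom among them. Without SCO replicate 1 the count of ATF4 genes called lower fell from 8 to 5, and Gdf15 was not called without SCO replicate 1 or CAP7 replicate 1 (-0.57). Among 27 endoplasmic reticulum chaperones and unfolded protein response genes, 4 were called lower (14.8%) and 1 higher (3.7%). Of the 4 lower genes 1 was Ero1l, which is also among the glycolysis and hypoxia genes. The shares over all genes were 3.04% and 3.01%. Hspa5, the chaperone BiP, averaged 1110.4 ± 18.7 CPM with SCO and 1446 ± 85.5 with CAP7 (-0.38 ± 0.048, adjusted p = 1.90e-06). Ppp1r15a, which reverses the translation block of this response, averaged 53.9 ± 10.6 and 90.5 ± 10.2 CPM (-0.75 ± 0.21, adjusted p = 0.0235), and was not called without SCO replicate 1 or CAP7 replicates 1 and 3 (-0.72 to -0.61). Leaving out SCO replicate 1 or CAP7 replicate 1 left 2 of the 4 lower calls, while the stricter filter and DESeq2 gave 7. The ATF4 element TGATGNAAN (either strand) was sought only in the 250 bases before a start site. It was found in 1 of the 7 called ATF4 genes with a promoter, Aars, against 2.4% of tested genes. Sequence farther upstream was not searched.

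The gene with the smallest p of the comparison was Selenow, which encodes the small selenocysteine protein SELENOW. It had 32.5, 31.5, 30.9 and 33.2 CPM in the SCO libraries, 111, 115, 118 and 119 in the CAP7 libraries and 39.3, 40.1, 45.5 and 44.0 in the DMSO libraries. The CAP7 libraries lay far above both other groups, and the SCO libraries below all DMSO libraries. The difference SCO minus CAP7 was -1.85 ± 0.075 (adjusted p = 2.66e-20), made of -0.39 with SCO and 1.46 with CAP7 against DMSO, and it was called under all 18 alternatives. Because of this gene, a list of selenoproteins and their synthesis factors was added after its value was seen, as a description only. Of its 18 tested genes, 4 were called lower with SCO (22.2%) and 1 higher (5.56%), against 3.04% and 3.01% of all genes. Lower were Selenow, Selenoh, a nuclear selenoprotein (11.1 ± 1.06 against 18.3 ± 1.42 CPM, -0.72 ± 0.12), Gpx1, the cytosolic glutathione peroxidase (198 ± 7.96 against 266 ± 27.8 CPM, -0.42 ± 0.070), and Selenot, of the endoplasmic reticulum (-0.25 ± 0.063, not called without SCO replicate 1 or CAP7 replicate 2 (-0.22 to -0.21)). Higher was Sephs2, which makes the selenium donor for selenocysteine, with 31.2, 29.6, 31.1 and 28.1 CPM with SCO and 19.3, 21.4, 19.1 and 19.3 with CAP7 (0.60 ± 0.082, adjusted p = 7.50e-06). The sign was thus opposite for Sephs2 and for these 4 genes, while 13 of the 18 were not called. Gpx4, the phospholipid hydroperoxide peroxidase, and Selenop, the selenium transport protein, gave 0.048 (95% interval -0.12 to 0.22) and -0.044 (-0.17 to 0.083), and neither was called.

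Of 28 listed genes of the aryl hydrocarbon receptor and xenobiotic metabolism, 21 were tested. Of these, 9 were called higher (42.9%, against 3.01% of all genes) and 1 lower (4.76%, against 3.04%), with a median of 0.31. Among the untested members, Cyp1a1 and Cyp1a2 had 0 counts over the 8 libraries and Ahrr had 6, so the calls do not cover them. Nqo1, the quinone reductase shared by this list and the NRF2 list, had 17.3, 21.3, 16.8 and 15.6 CPM with SCO, 8.48, 10.6, 9.02 and 10.8 with CAP7 and 16.7, 15.99, 14.5 and 18.2 with DMSO. The SCO and DMSO libraries overlapped and all 4 CAP7 libraries were below them (0.86 ± 0.12, adjusted p = 1.03e-05; CAP7 minus DMSO -0.74, adjusted p = 5.64e-06). Ces1d, a carboxylesterase that also hydrolyses triglyceride, averaged 94.8 ± 6.83 and 58.4 ± 7.097 CPM (0.70 ± 0.12). Ephx2, the soluble epoxide hydrolase, averaged 409 ± 17.99 and 309.7 ± 13.8 CPM, both above the DMSO mean of 211 ± 10.9 (0.40 ± 0.076). Cyp4v3, a fatty acid hydroxylase, averaged 15.9 ± 1.48 and 10.6 ± 0.865 CPM (0.58 ± 0.11), and Arnt, the partner of the aryl hydrocarbon receptor and of HIF1, 34.8 ± 3.78 and 24.8 ± 1.11 (0.49 ± 0.12). The single lower gene was Aldh1a7, an aldehyde dehydrogenase (-0.33 ± 0.089).

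Cyp1b1, a textbook target of the receptor, averaged 51.8 ± 3.16 CPM with SCO, 41.5 ± 3.87 with CAP7 and 78.1 ± 3.41 with DMSO (0.32 ± 0.083, adjusted p = 0.0133), and so lay below vehicle with both. Cyp2f2, another cytochrome P450, averaged 15.3 ± 1.397, 10.7 ± 2.86 and 43.9 ± 7.22 CPM in the same order (0.54 ± 0.14, adjusted p = 0.0158), with CAP7 replicate 3 inside the SCO range. Fmo1, a flavin monooxygenase, was called at 0.72 (adjusted p = 0.0236). Several of these calls were lost with 1 library fewer, each with its direction kept: Cyp1b1 was not called without CAP7 replicates 2 and 4 (0.29 to 0.30), Cyp2f2 without CAP7 replicates 1 and 4 (0.45 to 0.47), Fmo1 without SCO replicates 1 and 4 or CAP7 replicates 1, 2 and 4 (0.58 to 0.72) and Aldh1a7 without SCO replicate 1 or CAP7 replicates 2 and 4 (-0.32 to -0.30). With TNF, 2 of the 21 tested genes of this list were called higher and 2 lower, against 4.13% and 5.03% of all genes. No interaction with TNF was called in it by edgeR (8 positive and none negative at an unadjusted p of 0.05), while DESeq2 called 3 and limma-voom 1, all positive.

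Among 33 tested genes of the NRF2 antioxidant response, 5 were called higher and 5 lower with SCO. This was 15.2% each, against 3.01% and 3.04% of all genes. Besides Nqo1, Osgin1, an oxidative stress growth inhibitor, was higher (14.3 ± 2.14 against 8.13 ± 1.59 CPM, 0.81 ± 0.21), as was Ftl1, the ferritin light chain (1614 ± 85.8 against 1313 ± 165 CPM, 0.30 ± 0.076). Lower were Me1 and G6pdx, which supply NADPH (-0.36 ± 0.075 and -0.32 ± 0.072), and Hmox1, haem oxygenase. Hmox1 had 266, 400.4, 413 and 326 CPM with SCO, 640.1, 471, 526 and 608 with CAP7 and 117, 104, 100.2 and 130.4 with DMSO. Both treated groups lay above every DMSO library, and all SCO libraries below all CAP7 libraries (-0.68 ± 0.20, adjusted p = 0.0351). The Hmox1 call was lost in 7 of the 18 alternatives, which were DESeq2, library sizes alone, and the analyses without SCO replicates 1 and 4 or CAP7 replicates 1, 3 and 4 (-0.71 to -0.56). Other members that exceeded DMSO with each agent were not called between them: Srxn1 gave -0.055 (95% interval -0.21 to 0.10), Gclm, of glutathione synthesis, 0.21 (0.00096 to 0.43), Txnrd1 -0.27 (-0.46 to -0.083) and the cystine carrier Slc7a11 0.077 (-0.32 to 0.48). Txnrd1 was called lower in 1 of the 18 alternatives, the fit of only these 2 groups. Of the higher calls 2 were left without SCO replicate 2, 3 without SCO replicate 3 and 2 without CAP7 replicate 1, and of the lower calls 3 without SCO replicate 1 and 3 with library sizes alone. Osgin1 was not called without SCO replicate 3 or CAP7 replicate 3 (0.72 to 0.73), nor Ftl1 without SCO replicate 2 or CAP7 replicate 1 (0.22 to 0.27). The antioxidant response element TGACNNNGC (either strand) was sought only in the 250 bases before a start site. It was found in 2 of 8 called members with a promoter, G6pdx and Mgst1, against 13.9% of tested genes. Sequence farther upstream was not searched, so a missing match does not mean that a gene lacks the element.

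Of 18 tested glutathione S-transferases, which conjugate electrophiles to glutathione, 4 were called higher (22.2%) and 1 lower (5.56%) with SCO. The shares over all genes were 3.01% and 3.04%. Gsta3 had 5.47, 6.496, 7.32 and 6.51 CPM with SCO, 1.95, 1.82, 3.11 and 3.34 with CAP7 and 1.48, 0.453, 1.65 and 1.596 with DMSO. Its level was low throughout, and the 4 SCO libraries were above all others (1.33 ± 0.32, adjusted p = 0.00752). Gstm1 averaged 219.5 ± 8.81 and 164 ± 6.08 CPM (0.42 ± 0.075), and Gsta4, which acts on lipid peroxidation products, 105 ± 6.004 and 74.7 ± 6.49 (0.49 ± 0.11). Gstz1, of tyrosine breakdown, went the other way (281 ± 16.7 against 375 ± 16.1 CPM, -0.42 ± 0.077). Among 19 metal-handling genes 4 were called higher (21.1%) and 3 lower (15.8%), against 3.01% and 3.04% of all genes. The metallothioneins, which bind zinc and copper, were lower with SCO: Mt2 had 1048, 1205, 931 and 1412 CPM with SCO and 1975, 1593, 2187 and 1716 with CAP7, without overlap (-0.70 ± 0.14, adjusted p = 0.00165), and Mt1 averaged 2205 ± 111 and 2843 ± 146 CPM (-0.37 ± 0.076). The transferrin receptor Tfrc, which brings iron into the cell, was higher with SCO (85.4 ± 2.64 against 63.6 ± 4.48 CPM, 0.42 ± 0.095). Without SCO replicate 2 or CAP7 replicate 1 the higher calls among metal genes fell from 4 to 2. Members of the Gsta, Gstm and Ces1 families, the Ly6 genes, Gapdh and Ftl1 have close copies elsewhere in the genome, and how reads shared between copies were counted is not given in the sources used here.

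Among secreted and immune genes, the chemokine Ccl9 had the largest positive difference of the named genes above 16 CPM. It had 51.2, 56.2, 51.2 and 52.5 CPM in the SCO libraries, 18.6, 16.4, 16.3 and 12.4 in the CAP7 libraries and 47.5, 55.5, 47.2 and 55.8 in the DMSO libraries. SCO and DMSO libraries overlapped, and every CAP7 library was below every library of both other groups. The difference was 1.73 ± 0.11 (adjusted p = 9.06e-15). Ccl6, a related chemokine, had 355, 347, 375 and 371 CPM with SCO, 192, 183, 150.1 and 177 with CAP7 and 589, 656, 624 and 710.1 with DMSO. Here both treatments lay below DMSO, with CAP7 lowest (1.05 ± 0.11, adjusted p = 8.10e-08). Ccl2, the monocyte attractant MCP-1, averaged 11.1 ± 1.71 CPM with SCO, 7.05 ± 2.27 with CAP7 and 27.4 ± 3.28 with DMSO (0.67 ± 0.17, adjusted p = 0.0126), and Vcam1, an adhesion molecule, 47.5 ± 1.24, 36.3 ± 6.97 and 79.6 ± 4.32 (0.39 ± 0.10). Of 37 tested chemokine, cytokine and NF-kB genes these 4 were called higher (10.8%) and none lower (2 at an unadjusted p of 0.05, 1 by DESeq2 and none by limma-voom). Over all genes the shares were 3.01% higher and 3.04% lower. Without CAP7 replicate 4 the count fell from 4 to 2. The Ccl2 call was lost with limma-voom and without SCO replicate 3 or CAP7 replicate 4 (0.49 to 0.59), and that of Vcam1 without CAP7 replicates 3 and 4 (0.32). Macrophage markers, which summed to 7.47 to 11.5 CPM with SCO and 4.39 to 8.34 with CAP7, had a higher range with SCO, with an overlap, and had Ptprc and Adgre1 at 0, and their part in these differences was not tested.

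Several other secreted products followed the order DMSO, SCO, CAP7. Igfals, which stabilises circulating insulin-like growth factors, had 27.5, 32.2, 26.3 and 26.6 CPM with SCO, 16.3, 14.6, 14.8 and 10.9 with CAP7 and 70.2, 71.7, 75.04 and 61.9 with DMSO, 3 groups without overlap (1.00 ± 0.11, adjusted p = 1.18e-07). Spp1, osteopontin, averaged 47.3 ± 2.64, 25.3 ± 4.89 and 66.4 ± 10.1 CPM (0.91 ± 0.15, adjusted p = 7.64e-05), and Ccn1, a matricellular protein, 18.98 ± 2.82, 9.49 ± 3.02 and 27.1 ± 4.09 (1.01 ± 0.15). Hp, the acute phase protein haptoglobin, averaged 345 ± 22.9, 261 ± 24.1 and 795 ± 73.2 CPM (0.40 ± 0.083). Ghrh, growth hormone-releasing hormone, went the other way, with 32.4, 43.4, 24.9 and 37.04 CPM with SCO and 99.5, 69.8, 87.8 and 53.4 with CAP7. The spread among the CAP7 libraries was wide but did not reach the SCO libraries (-1.17 ± 0.21, adjusted p = 0.000483). Sema3g, a secreted semaphorin, averaged 48.3 ± 1.66 and 82.2 ± 6.998 CPM (-0.77 ± 0.12), with DMSO (52.2 ± 7.05) near SCO.

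Several markers of preadipocytes and fibroblasts were higher with SCO than with CAP7. Of 25 listed, 21 were tested and 5 were called higher by edgeR (23.8%, against 3.01% of all genes). None was lower by edgeR, DESeq2 or limma-voom or at an unadjusted p of 0.05. Of the 21 differences, 19 were above 0. Ly6c1, a surface antigen of stromal cells, had 45.3, 39.9, 41.5 and 43.8 CPM with SCO, 25.9, 15.5, 17.97 and 18.8 with CAP7 and a DMSO mean of 84.03 ± 1.72 (1.12 ± 0.15, adjusted p = 4.09e-06). S100a4, a calcium-binding protein of fibroblasts, averaged 492 ± 40.97 and 363 ± 21.5 CPM (0.44 ± 0.082), and Cd44, the hyaluronan receptor, 18.2 ± 2.15 and 12.97 ± 2.15 (0.47 ± 0.10). Ly6a, which encodes Sca-1, was called at 0.64, with its libraries overlapping, and Vim, vimentin, at 0.24. Without SCO replicate 1 or CAP7 replicate 3 the list had 3 calls. Ly6a was not called without SCO replicate 1 or CAP7 replicates 2 and 3 (0.56 to 0.58), nor Vim without SCO replicates 1, 2 and 4 or CAP7 replicates 2, 3 and 4 (0.21 to 0.25). Of 40 tested extracellular matrix genes 1 was called higher, a share of 2.5%, below the 3.01% of all genes. That gene was Timp1, an inhibitor of matrix proteases (30.1 ± 1.83 against 20.1 ± 6.36 CPM, 0.58 ± 0.16). That call was lost with limma-voom and without SCO replicate 4 or CAP7 replicates 3 and 4 (0.45 to 0.54). Col3a1, a fibrillar collagen, gave 0.10 (95% interval -0.067 to 0.27), with both treatments below DMSO, and Tgfbi, a matrix protein induced by TGF-beta, -0.091 (-0.49 to 0.31).

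Several genes of the cell cycle were higher with SCO than with CAP7. Of 32 DNA replication genes 6 were called higher (18.8%) and none lower (1 at an unadjusted p of 0.05, 1 by DESeq2 and none by limma-voom), with 25 of 32 above 0 and a median of 0.25. Of 24 mitosis genes 4 were called higher (16.7%) and none lower by any of the 3 tools or at an unadjusted p of 0.05, with 21 above 0 and a median of 0.27. Over all genes 3.01% were called higher and 3.04% lower, and the median was 0.0014. Rrm2, the regulated subunit of ribonucleotide reductase, had 7.46, 8.29, 9.07 and 6.57 CPM with SCO, 3.48, 4.01, 4.63 and 3.91 with CAP7 and 10.5, 8.42, 9.56 and 9.15 with DMSO. SCO and DMSO libraries overlapped and the CAP7 libraries were lower (0.97 ± 0.14, adjusted p = 1.68e-05). The replicative helicase subunits Mcm3 and Mcm5 differed by 0.55 ± 0.11 and 0.66 ± 0.15, Mcm6 by 0.47 ± 0.12, and the DNA ligase Lig1 by 0.43 ± 0.10. Top2a, topoisomerase II alpha, averaged 24.5 ± 1.99, 18.2 ± 2.23 and 34.9 ± 2.86 CPM with SCO, CAP7 and DMSO (0.43 ± 0.12), and Aurkb, a mitotic kinase, was low throughout (2.699 ± 0.828 against 1.33 ± 0.317 CPM, 1.02 ± 0.25). Cdk1, the kinase of mitotic entry, gave 0.27 (adjusted p = 0.0953), and was called higher only without CAP7 replicate 1 (0.38). With limma-voom 3 replication and 1 mitosis gene were called, and without CAP7 replicate 4, or with only these 2 groups in the fit, 2 mitosis genes. Single calls were lost for Mcm6 without SCO replicate 2 or CAP7 replicate 4 (0.38), for Top2a without SCO replicates 1 and 2 or CAP7 replicates 2, 3 and 4 (0.37 to 0.43) and for Aurkb without CAP7 replicate 4 (0.89). Preadipocyte markers, summing to 2828 to 3029 CPM with SCO and 2360 to 2662 with CAP7, moved with both lists, and their part in these differences was not tested.

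Lipid storage genes split. Of 28 tested PPARgamma targets, 3 were called higher and 7 lower with SCO, with a median of -0.010. These were 10.7% and 25%, against 3.01% and 3.04% of all genes. Of the 28, 23 were called above DMSO with SCO and 25 with CAP7, against 10.3% and 15.2% of all genes. Cd36, the fatty acid translocase, was higher with SCO, with 1454, 1396, 1503 and 1398 CPM against 1032, 1265, 1172 and 1257 with CAP7 (0.28 ± 0.063, adjusted p = 0.00418). Hilpda, an inhibitor of lipolysis that also responds to hypoxia, was lower, with 129, 151, 129 and 147 CPM against 292, 204, 240.1 and 169. The CAP7 libraries spread widely but stayed above all SCO libraries (-0.70 ± 0.14, adjusted p = 0.00139). Cidec, which fuses lipid droplets, had 2535, 2827, 2714 and 2549 CPM with SCO and 2887, 3449, 3480.0 and 3399 with CAP7, both above DMSO (1297 ± 51.5 CPM; -0.31 ± 0.075). The droplet coat protein Plin2 differed by -0.29 ± 0.074 and the acyl-CoA synthetase Acsl1 by -0.34 ± 0.082, whereas another synthetase, Acsl5, was higher with SCO (21.3 ± 2.28 against 12.2 ± 1.28 CPM, 0.80 ± 0.086). Angptl4, a lipoprotein lipase inhibitor and classic target, was not called (344 ± 15.4 and 342 ± 19.6 CPM, 0.011, 95% interval -0.11 to 0.13). Fabp4, the fatty acid carrier, gave 0.27 (adjusted p = 0.102) and Pck1, of glyceroneogenesis, -0.35 (adjusted p = 0.0862). Neither was called, but 2 of the 18 alternatives called Fabp4 higher and 2 called Pck1 lower. Without SCO replicate 1 the PPARgamma targets called lower fell from 7 to 3, and without CAP7 replicate 3 to 4. Plin2 was not called without SCO replicate 1 or CAP7 replicate 1 (-0.26 to -0.25).

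Several genes of fatty acid synthesis were lower with SCO. Of 21 tested genes of de novo lipogenesis and desaturation, 6 were called lower (28.6%) and 1 higher (4.76%), with a median of -0.17. Among all genes 3.04% were called lower and 3.01% higher. Fasn, fatty acid synthase, had 501, 474, 496 and 443 CPM with SCO, 673, 693, 639 and 791 with CAP7 and 601, 556, 629 and 537 with DMSO. Every SCO library was below every CAP7 library, with the DMSO libraries between them (-0.55 ± 0.11, adjusted p = 0.00216). Acly, which makes cytosolic acetyl-CoA, averaged 299.6 ± 18.4 and 389.6 ± 10.4 CPM (-0.38 ± 0.067), and the desaturases Scd1 and Scd2 differed by -0.32 ± 0.085 and -0.35 ± 0.061. Scd1 was not called without SCO replicates 1 and 2 or CAP7 replicate 1 (-0.31 to -0.26). Lpin1, the phosphatidate phosphatase of triglyceride synthesis, averaged 418 ± 7.49 and 538 ± 17.5 CPM (-0.36 ± 0.077), Gbe1, the glycogen branching enzyme, 185 ± 3.61 and 314 ± 29.5 (-0.76 ± 0.11), and Cav1, caveolin of the surface caveolae, 853 ± 32.6 and 1152 ± 52.6 (-0.43 ± 0.066). Of 19 tested identity genes of the adipocyte, 1 was called higher and 1 lower, with differences from -0.31 to 0.31. This was 5.26% each, against 3.01% and 3.04% of all genes. The higher calls were 3 without CAP7 replicate 1, with limma-voom, with library sizes alone or with only these 2 groups in the fit, 4 without the filter on low counts, and 2 with DESeq2, with the replicate block, without SCO replicate 3 or without mitochondrially encoded genes. The lower calls were 2 without that filter, with DESeq2, limma-voom, the replicate block or only these 2 groups. Pparg gave -0.0051 (95% interval -0.16 to 0.15), Adipoq 0.037 (-0.11 to 0.18) and Cebpa -0.18 (-0.35 to -0.015). Slc2a4, the insulin-responsive glucose transporter GLUT4, gave -0.29 (adjusted p = 0.0667) and Cfd, adipsin, 0.28 (adjusted p = 0.0562). These 2 were not called, but 5 and 9 of the 18 alternatives called them.

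A number of nuclear genes of the respiratory chain and the citric acid cycle were slightly lower with SCO. All 42 were tested, 14 were called lower (33.3%) and 1 higher (2.38%), against 3.04% and 3.01% of all genes. Of the 42, 38 were below 0, and the median was -0.14 against 0.0014 for all genes. Sdhb, of succinate dehydrogenase, averaged 429.7 ± 23.5 and 517 ± 17.6 CPM (-0.27 ± 0.058), and Atp5b, of the ATP synthase, 1556 ± 69.6 and 1832 ± 61.5 (-0.24 ± 0.061). The pair of muscle-type cytochrome oxidase subunits also found in brown fat went in opposite directions: Cox7a1 averaged 104 ± 15.3 CPM with SCO and 144 ± 17.2 with CAP7 (-0.47 ± 0.12), and Cox8b 118 ± 9.59 and 85.5 ± 2.51 (0.47 ± 0.076, adjusted p = 0.000102). The lower calls fell from 14 to 6 without SCO replicate 1 or SCO replicate 3, to 7 without CAP7 replicate 2 or CAP7 replicate 4, to 8 without CAP7 replicate 3 and to 7 with library sizes alone. Cox7a1 was not called without SCO replicate 3 or CAP7 replicate 3 (-0.41 to -0.37), nor Atp5b without SCO replicates 1 and 3 (-0.22 to -0.21).

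**Figure D4:**
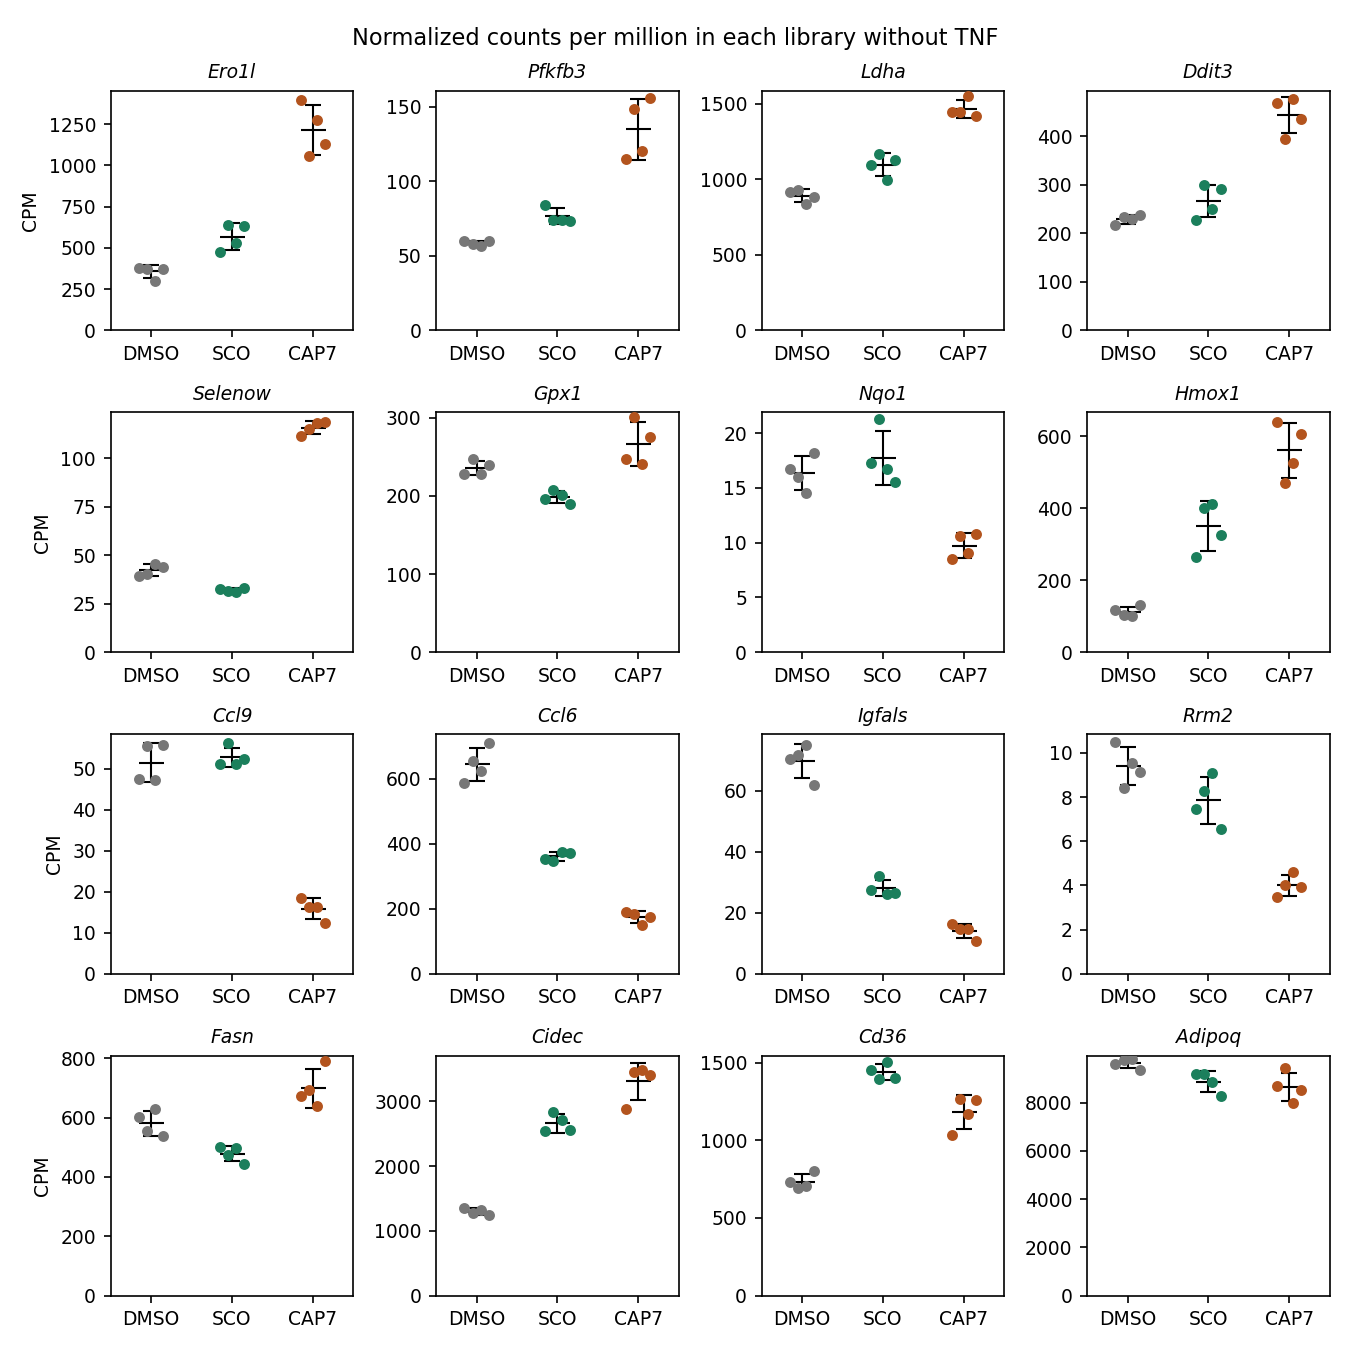
CPM in each library (points) with the mean and SD (black) for 16 genes in the DMSO, SCO and CAP7 groups without TNF, each panel with its own axis from 0. The 4 CAP7 libraries stand apart from both other groups for Selenow, Ero1l, Ccl9 and Rrm2, while the groups overlap for Adipoq.

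Among the remaining lists, early response genes were mixed, with 4 of 30 called higher and 4 lower. This was 13.3% each, against 3.01% and 3.04% of all genes. Fosl1, an AP-1 subunit, averaged 36.3 ± 1.896 CPM with SCO, 54.3 ± 8.24 with CAP7 and 17.2 ± 2.11 with DMSO (-0.58 ± 0.10), and the phosphatase Dusp1 19.3 ± 1.49, 29.9 ± 5.23 and 16.04 ± 2.51 (-0.63 ± 0.12), while Egr1, a zinc finger factor, was higher with SCO (27.99 ± 3.18 against 19.4 ± 1.77 CPM, 0.53 ± 0.088). None of 38 interferon response genes was called in edgeR's test or by DESeq2 or limma-voom, with 2 lower at an unadjusted p of 0.05. Without CAP7 replicate 1, 2 interferon genes were called higher, without the filter on low counts 2 higher and 6 lower, and with only these 2 groups in the fit 1 lower. None of 22 genes of branched-chain amino acid catabolism was called by edgeR, with 3 higher and 3 lower at an unadjusted p of 0.05, 2 lower by DESeq2 and 1 lower by limma-voom. Proteasome subunits had 4 of 29 called lower (13.8%) and cholesterol genes 2 of 23 (8.7%), against 3.04% of all genes. The proteasome count was 2 without SCO replicate 1, 2 or 3, without CAP7 replicate 3 or with library sizes alone, and the cholesterol count was 1 without SCO replicate 1, 2 or 4 or CAP7 replicate 1, 2 or 3, with library sizes alone or with libraries thinned to the lowest total. Other large differences fell outside the lists. Maoa, monoamine oxidase A, was higher with SCO, with 65.9, 67.1, 65.5 and 79.3 CPM against 35.7, 38.5, 41.2 and 38.4 (0.85 ± 0.093, adjusted p = 8.10e-08). Rassf6, a Ras-association domain gene, had 28.98 ± 2.65 CPM with SCO, 14.4 ± 0.80 with CAP7 and 16.8 ± 2.68 with DMSO, so that SCO stood above both (1.01 ± 0.14). Dennd2a and Mfsd4b1 were higher with SCO by 0.87 ± 0.088 and 0.79 ± 0.13. Cyp26b1, which degrades retinoic acid, was lower with SCO (16.3 ± 1.82 against 28.3 ± 3.17 CPM, -0.79 ± 0.10), as were the transcripts 6030408B16Rik (-1.18 ± 0.19) and Gm35853 (-1.05 ± 0.13).

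The same contrast in the 4 SCO and 4 CAP7 libraries with TNF shares no library with the one above. There 1322 genes (9.16%) were called, 596 higher (4.13%) and 726 lower (5.03%) with SCO. Of the 872 genes called without TNF, 734 (84.2%) had the same sign with TNF, 280 were called in the same direction and 9 in the opposite one. These 280 are 32.1% of the genes called without TNF and 21.2% of those called with it. The sign was the same for 88.4% of the 438 genes lower with SCO (median -0.32 without and -0.21 with TNF). It was the same for 80% of the 434 higher ones (median 0.41 and 0.16), and the difference between these shares was not tested. These genes were chosen by their call without TNF, which favours larger values there, so the medians do not compare the states evenly. The same-sign share over all genes tested was not computed. Without TNF_SCO replicate 3 the calls with TNF were 304 and 385, and without TNF_CAP7 replicate 1 they were 296 and 427. Selenow differed by -1.62, Ero1l by -0.89, Pfkfb3 by -0.79, Nqo1 by 0.96 and Maoa by 0.91 with TNF, all called. Glycolysis and hypoxia genes had 21 of 31 called lower with TNF and none higher by any of the 3 tools, respiratory chain genes 23 of 42 lower, ATF4 genes 7 of 35 lower and 1 higher, and DNA replication genes 9 of 32 higher. Other lists had few calls without TNF and more with it. Adipocyte identity genes went from 1 higher and 1 lower to 11 of 19 lower and none higher (1 at an unadjusted p of 0.05, none by DESeq2 or limma-voom). Branched-chain amino acid genes went from no call to 10 of 22 lower and none higher by any of the 3 tools or at an unadjusted p of 0.05. Extracellular matrix genes went from 1 higher to 1 higher and 10 lower of 40, and acute phase and complement genes from 1 higher and 1 lower to 1 higher and 6 lower of 23. The interaction with TNF was called by edgeR for 2 genes each of the identity, matrix and acute phase lists, and for none of the branched-chain list (7 positive at an unadjusted p of 0.05, none by DESeq2 or limma-voom).

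The difference between the 2 states was tested as an interaction, where a positive value means that SCO minus CAP7 was more positive without TNF. It was called for 116 genes (0.804%), 85 positive (0.589%) and 31 negative (0.215%). Leaving out single libraries moved these counts to between 46 and 172 and between 2 and 112. Ccl9 differed by 1.73 without TNF and 0.56 with it (interaction 1.17, adjusted p = 5.07e-06). For Igfals (1.00 and -0.091, interaction adjusted p = 9.54e-05), Spp1 (0.91 and -0.27, adjusted p = 0.000919), Ccn1 (1.01 and -0.18, adjusted p = 0.000919) and Ly6c1 (1.12 and 0.14, adjusted p = 0.0155) the excess with SCO was present without TNF and was not called with it. Hp reversed, from 0.40 without TNF to -0.30 with it, each called (interaction 0.70, adjusted p = 0.000919). None of the 31 glycolysis and hypoxia genes had a called interaction by edgeR, DESeq2 or limma-voom, with 3 at an unadjusted p of 0.05. The same held for the 42 nuclear respiratory chain and citric acid cycle genes, with 6 at that p. Outside that list, the mitochondrially encoded mt-Co1 gave -0.42 without TNF and -0.047 with it (edgeR interaction -0.37, adjusted p = 0.0415).

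**Figure D5:**
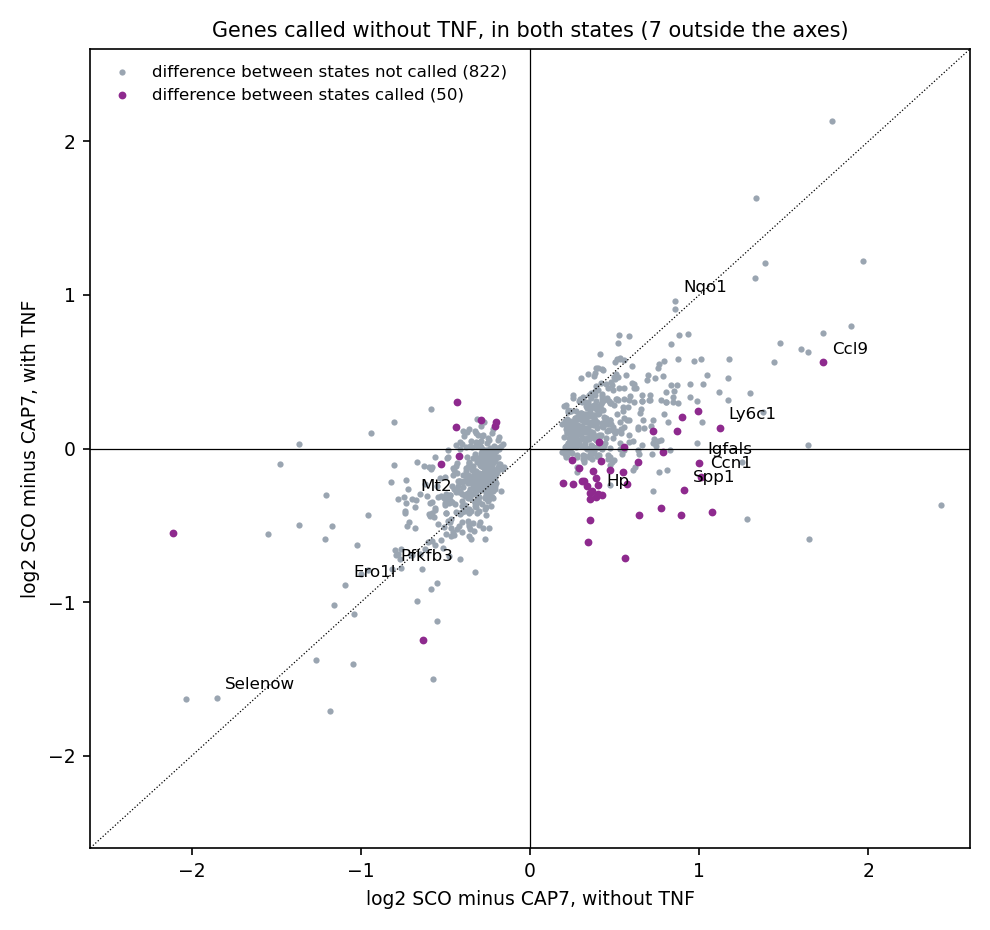
Log2 difference SCO minus CAP7 without TNF (x axis) against that with TNF (y axis) for the 872 genes called without TNF, 7 of which lie outside the axes. Selenow, Ero1l and Nqo1 lie near the dotted line of equal values, while Igfals, Spp1 and Ccn1 lie near 0 on the y axis and are among the 50 genes with a called interaction (purple).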

How the data were processed

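Counts per gene were used as the authors deposited them. The submitters' processing notes name build GRCm39 and the programs STAR 2.7.11b, HTSeq 2.0.5 and cutadapt 4.9, besides limma 3.60.6 under R 4.4.1. They leave out the counting options and the strand setting. Of 57186 listed genes, 28862 had a count and 14428 passed the filter of edgeR (filterByExpr by group). Counts of all 32 libraries (11.31 M to 37.68 M each) were fitted together with edgeR 4.0.16 in R 4.3.3, with TMM scaling, 1 mean per group and 24 residual degrees of freedom. The quasi-likelihood test was used with Benjamini-Hochberg adjustment over all genes tested and a threshold of 0.05. CPM are TMM-scaled. All 32 libraries share the estimate of the spread. DESeq2 1.42.0 and limma-voom (limma 3.58.1), other scalings and filters, thinning, a replicate block and leaving out each library were the alternatives. Tested on simulated counts of 13704 genes for SCO minus CAP7 without TNF, the fit made 6 false calls and recovered 32% of the genes set to a 1.25-fold change, 68% at 1.5-fold, 80% at 2-fold and 100% at 4-fold.

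The 38 gene lists and the naming rule were chosen with earlier results of these data known. The rule names the 12 largest called differences in each direction among genes of at least 16 CPM without overlap, up to 4 members of each list with the lowest p, and a set list of genes. The selenoprotein list and the hypoxia core were added after values were seen, and Aars, Gpi1, Mgst1 and Tpi1 are named for their promoters only. Symbols came from a table keyed by gene identifier (13983 of the tested genes matched), and promoters from RefSeq on GRCm38.p6, a build other than that of the counts. Deviations of same-numbered SCO and CAP7 libraries were barely correlated over all genes tested (r from -0.0226 to 0.0269). The numbers were not used as pairs, though this check cannot exclude a pairing.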

Additional observations from a re-analysis of the deposited data

Results flagged for a closer look

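In 16 of 363 groups of 4 libraries examined, 1 library lay far from the other 3 by Dixon's criterion, which chance alone gives in about 1 of 20 groups. Of the SCO libraries, replicate 1 was the highest for Pfkfb3 (84.5 CPM against 73.5 to 74.4) and the lowest for Ppp1r15a (38.2 CPM against 57.6 to 61.4). SCO replicate 2 was the highest for Dennd2a (32.3 CPM), replicate 3 the lowest for Vim (858 CPM) and Cox7a1 (81.0 CPM), and replicate 4 the highest for Maoa (79.3 CPM). Of the CAP7 libraries, replicate 1 stood apart for Psat1 (380.1 CPM) and Cidec (2887 CPM), where it was the lowest, and for Cyp1b1 (47.2 CPM) and Cdk1 (34.8 CPM), where it was the highest, and replicate 2 was the highest for Sephs2 (21.4 CPM). Of the DMSO libraries, replicate 3 was the lowest for Ero1l (300.0 CPM) and the highest for Gm35853 (11.9 CPM), replicate 2 the lowest for Gsta3 (0.453 CPM), replicate 1 the lowest for Ccl2 (22.4 CPM) and replicate 4 the lowest for S100a4 (689.8 CPM).

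For 11 of the named genes SCO minus CAP7 differed between the states without and with TNF in the interaction test. The log2 difference between the states was 1.17 for Ccl9, 1.20 for Ccn1, 1.18 for Spp1, 1.09 for Igfals, 0.99 for Ly6c1, 0.81 for Mfsd4b1, 0.70 for Hp, 0.63 for Col3a1, 0.58 for Vcam1 and 0.56 for Selenop, all more positive without TNF, and -0.47 for Plin2. Selenop and Col3a1 were not called without TNF (-0.044 and 0.10) and were lower with SCO with TNF (-0.60, adjusted p = 4.03e-08, and -0.53, adjusted p = 4.29e-05). Plin2 was lower with SCO without TNF (-0.29) and gave 0.19 with TNF (adjusted p = 0.112).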

How the results depend on the processing

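Of the 117 genes tracked, 95 were called; 68 of these were called under all 18 alternatives, 27 lost the call under at least 1, none reversed, and 9 of the 22 uncalled genes gained a call under at least 1. Leaving out 1 library gave 287 to 402 genes higher and 235 to 341 lower for SCO minus CAP7 without TNF, 296 to 722 and 385 to 805 with TNF, 46 to 172 and 2 to 112 for the difference between the states, 1201 to 1340 and 988 to 1223 for SCO minus DMSO, and 1827 to 2045 and 1868 to 2100 for CAP7 minus DMSO. Library sizes alone gave 667 and 264 without TNF and 1353 and 3351 for CAP7 minus DMSO, and moved the share of higher calls with TNF from 45.1% to 61%. With only the groups compared in the fit, the calls with TNF were 334 and 404, and 9 negative differences between the states were called. That test also gave 213 and 130 without a filter, 132 positive with the stricter filter, 188 and 93 with DESeq2, and 20 negative after thinning. The cause of these shifts was not tested. With the replicate block, 445 genes were called higher and 460 lower without TNF, 636 and 769 with TNF, 93 and 38 between the states, 1498 and 1336 for SCO minus DMSO and 2240 and 2197 for CAP7 minus DMSO. Of the 4 SCO libraries, 2 correlated best with the CAP7 library of their own number. This neither shows nor excludes that the replicate numbers pair the samples.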
